A study of Danio rerio with 14 samples.

Results

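H2A.Z occupancy in zebrafish embryos exposed to 5-AzaC was compared with that of solvent controls over every consensus peak of the deposited comparison. All 29854 rows of that table were taken, out of 58842 rows in the 2 deposited tables of the series. The change of a peak is its level in 5-AzaC minus its level in DMSO, both on the log2 scale of mean normalised reads per peak, so that -1 is a halving. Both groups came from wild-type AB/Tuebingen embryos collected 6 hours after fertilization, with around 50 embryos per well. The control group (3 samples) was kept in 0.1% DMSO, and the treated group (3 samples) in 100 µM 5-AzaC, the usual abbreviation of 5-azacytidine, from the 1-cell stage. Each library was made by CUT&Tag from around 10000 cells with a polyclonal H2A.Z antibody. CUT&Tag uses an antibody to direct a transposase that cuts and tags the DNA around the bound protein. The other 8 of the 14 samples are embryos in TDCIPP, a flame retardant, and embryos overexpressing H2A.Z, which were outside the comparison.

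H2A.Z is a variant of histone H2A that the SRCAP and p400 remodelling complexes place into nucleosomes, mostly at promoters and enhancers. In the early zebrafish embryo it marks regions whose DNA is unmethylated, and H2A.Z and DNA methylation largely exclude each other. 5-AzaC is a cytidine analogue that traps DNA methyltransferases and lowers DNA methylation. The series is titled for a contest over H2A.Z between repetitive elements, once they are no longer repressed, and the rest of the genome. The comparison addresses which peaks hold more or less H2A.Z after 5-AzaC.

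The table gives 1 level per group, so no value of a single embryo pool, no SD and no library depth can be given for a peak. The spread between libraries enters only through the p-value and FDR that the authors deposited for each peak. The labels do not say whether the 3 samples of a group came from separate clutches, so these p-values measure the spread between these samples, which may be technical. Cells of whole embryos were pooled, and a lower level in every cell and a loss in some cells cannot be told apart. The FDR adjustment covered 20013 peaks. The other 9841 (33.0%) were listed at an FDR of 1 and could not be called. They were weak peaks, with a median DMSO level of 2.44 against 4.17 for the peaks in the adjustment.

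Most peaks carried less H2A.Z signal after 5-AzaC. The DMSO levels had a median of 3.64 and the 5-AzaC levels a median of 2.96. The median change was -0.70, with quartiles of -1.03 and -0.31, and 25684 peaks lay below 0 against 4108 above. Peaks count as called where the authors' deposited table lists an FDR below 0.05, which gave 3739 lower calls (18.7% of the peaks in the adjustment) and 90 higher calls (0.45%). How the authors scaled the libraries is not given in the sources used here, and a scaling factor would move every change by the same amount. Peaks are therefore described by how far their change lay from the table's median of -0.70. Gain, loss and the sign of a change refer to the levels as deposited.

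A minority of peaks departed widely from the median, more of them upwards than downwards. A change at least 1 above the median was found in 2475 peaks (8.29% of all peaks), and a change at least 1 below it in 760 (2.55%). All 90 peaks called higher were among the 2475, which have changes of at least 0.30. This is nearly fixed in advance, since with the spread in these data a smaller gain could hardly be called. None of the 3739 called lower could be among the 2475. Of the lower calls, 3404 lay within 1 of the median and 335 at least 1 below it. Weak peaks supplied most of the upward departures: 1771 of the 2475 (71.6%) were outside the adjustment, and the median DMSO level of the 2475 was 1.82 against 3.64 over all peaks. Downward departures had a median DMSO level of 3.46. Each change in the adjustment was also tested against -0.70, with an error derived from the deposited change and p-value. In this approximate test with Benjamini-Hochberg adjustment 243 peaks (1.21%) were higher than the median and 0 were lower. Without adjustment, 615 higher and 427 lower peaks had a p below 0.05 in this test. A share of 0.05 of the 20013 peaks would be expected there with no departure at all. The unadjusted counts are therefore no evidence of departure by themselves. All 243 had a change above 0, but this is nearly fixed in advance. Even at a mean level of 8 or more, where the median error was 0.21, a peak had to lie several errors above -0.70 to pass. That the 243 included the 90 higher calls is nearly fixed as well. The errors come from the same p-values, and -0.70 lies further from those changes than 0. The test treats the median as known, and a peak that misses its threshold is not shown to follow the median.

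**Figure D1:**
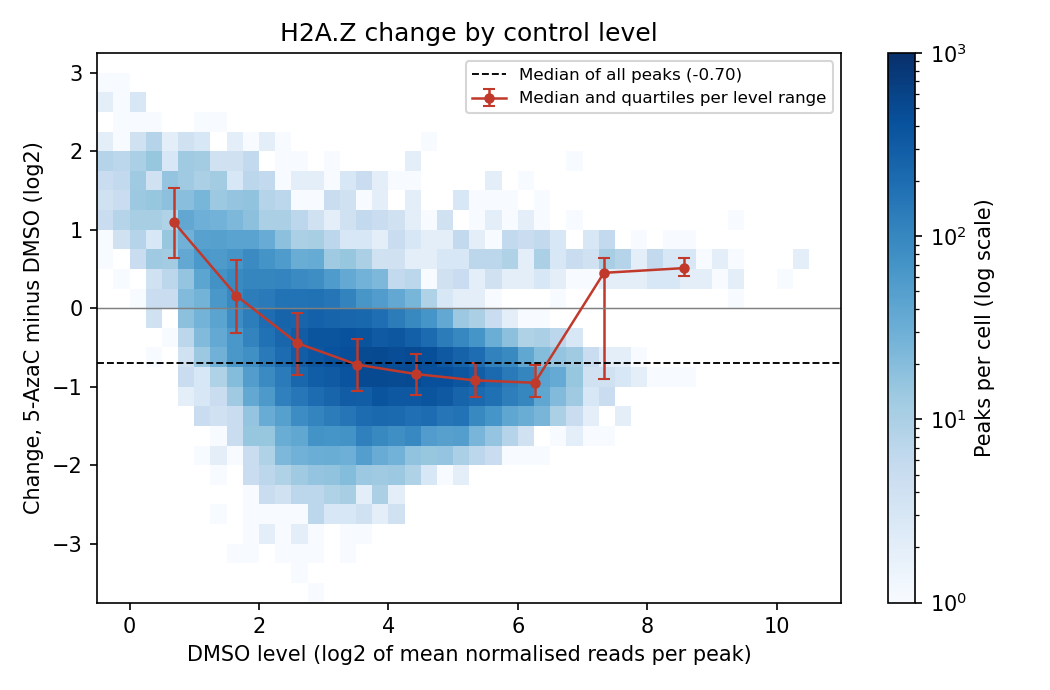
Change in H2A.Z (5-AzaC minus DMSO, log2) against the DMSO level (log2 of mean normalised reads per peak) for all 29854 peaks, with shading on a log scale for the number of peaks and red points for the median and quartiles of each level range. The medians run from above 1 in the weakest range down to -0.95 between levels 6 and 7, and return above 0 for the 118 peaks at 7 or more.

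The level in control embryos ordered the changes in 3 stretches. Below a DMSO level of 2 the median change of 2790 peaks was 0.30, and 50.8% of them lay at least 1 above the table's median. From 2 to 7 the change became steadily more negative, with medians of -0.44, -0.72, -0.84, -0.92 and -0.95 in successive ranges of 1. The quartiles lay at -1.13 and -0.70 between levels 5 and 6 and at -1.13 and -0.73 between 6 and 7. Lower calls made up 69.3% of the 631 peaks between 6 and 7, against 18.7% over the adjustment. The median approximate error was 0.41 at mean levels 4 to 5 and 0.29 at 6 to 7. The share of calls therefore follows the error as well as the change. At 7 or more this trend turned, and the median change of 118 peaks was 0.48.

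The DMSO level is itself a term of the change, so an error in it lowers or raises both together. With peaks ordered by the mean level of both groups, the median change was 0.10 below 1, -0.23 between 1 and 2, and -0.89 between 5 and 6. Ordered by the 5-AzaC level, the peaks below 1 had a median of -1.27. The positive medians of weak peaks thus depend on which level orders them. Between 7 and 8 the medians were 0.45, 0.56 and 0.64 by DMSO, mean and 5-AzaC level. Ordering by 5-AzaC level, and in part by mean level, places peaks there through the group in which they are high, so these 2 medians do not bear on the turn. On the DMSO axis that range held 42 peaks above 0 and 37 below.

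The strongest peaks split into a set with changes like those of the rest and a set with changes above 0 in the deposited levels. Of the 118 peaks with a DMSO level of at least 7, 78 lay above 0 with a median change of 0.57 (quartiles 0.48 and 0.70), and 40 lay below 0 with a median of -0.90 (-1.13 and -0.76). Of the 78, 38 were called higher, and of the 40, 28 were called lower. Relative to the table's median change, 77 of the 118 lay at least 1 above it and 2 at least 1 below it. At a DMSO level of 8 or more, 36 of 39 peaks lay above 0. Another peak lay within 10 kb of 67 of the 78 and of 17 of the 40. Several of the 78 lay in a single stretch, chr10:16706052-16840734. Such peaks could be each other's neighbours, so these counts are not counts of separate cases. These 118 peaks covered 0.271 Mb and held 5.84% of the summed DMSO signal and 11.4% of the summed 5-AzaC signal, with mean linear levels of 269 and 346 normalised reads per peak. Their summed signal in 5-AzaC was 1.29 times that in DMSO, against 0.657 over all peaks, which covered 26.2 Mb at means of 18.2 and 12.0.

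Few strong peaks lay between the sets. Of the 394 peaks whose mean level reached 6, 235 had a change of -0.25 or less, 155 a change of 0.25 or more, and 4 a change in between. The mean level includes 5-AzaC, so a peak that gained could reach it from a lower DMSO level. The median DMSO level was nonetheless 6.97 for the 155 and 6.66 for the 235. The higher set had a median change of 0.66 (quartiles 0.53 and 0.82) and the lower set a median of -0.88. The sets were alike in width, with medians of 1657 and 1678 bp. Per length the higher set was somewhat denser in the control, at a median of 80.4 normalised reads per kb against 64.6. They differed more in their neighbourhood: 131 of the 155 higher peaks (84.5%) had another peak within 10 kb, against 114 of the 235 lower peaks (48.5%). Of all 24755 peaks on assembled chromosomes, 9406 had their nearest neighbour at 1 to 10 kb and 166 had it closer. Higher peaks could be each other's neighbours, so the 155 are not separate cases. On the unplaced sequence KN149693v1, for example, 9 of them lay within 39.1 kb. Unplaced sequences supplied 22 of the 155 and 16 of the 235, and the long arm of chromosome 4 supplied 12 and 0. Most of the 12 lay in the single stretch chr4:28555523-28709765. No test was run on these shares, since the sets are defined by the change.

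**Figure D2:**
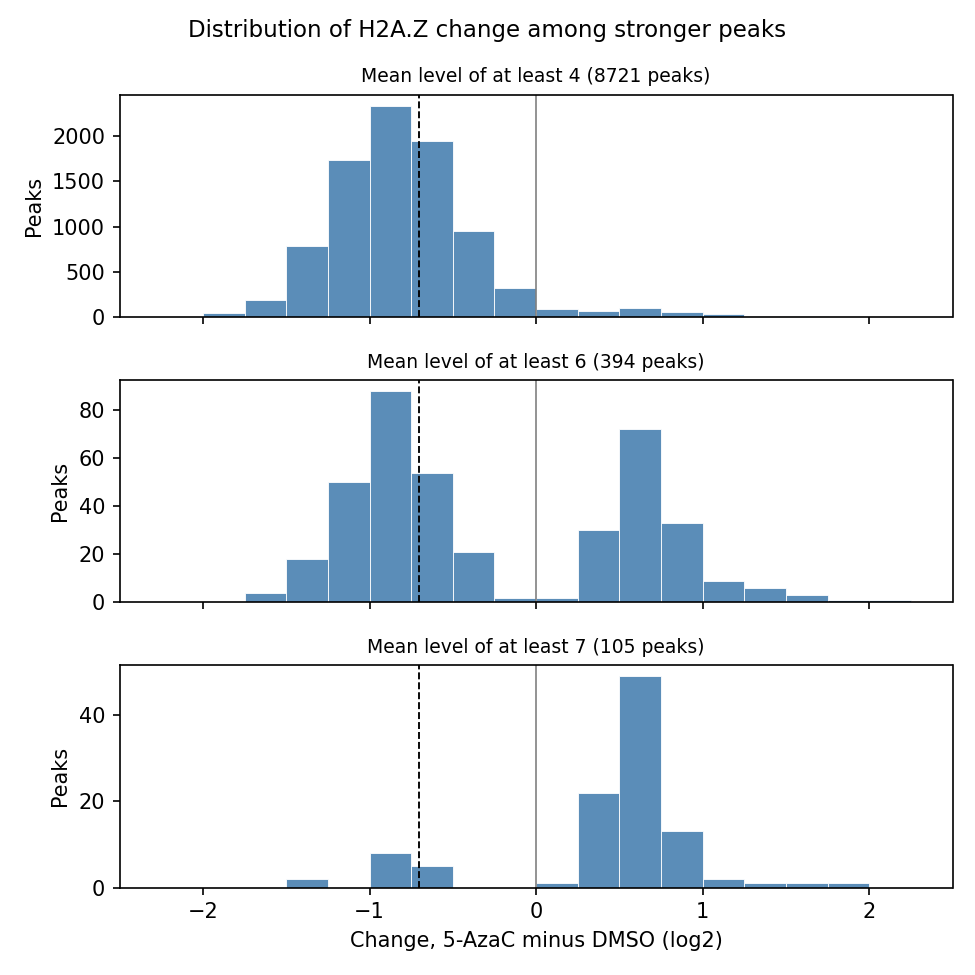
Number of peaks by change (5-AzaC minus DMSO, log2, in steps of 0.25) for peaks whose mean level over both groups reaches 4, 6 and 7. The dashed line is the median of all peaks (-0.70) and the solid line is 0. At 6 or more the 394 peaks fall into 1 group near -0.88 and another near 0.66, and at 7 or more 89 of 105 peaks lie in the upper group. The mean level includes 5-AzaC, so peaks that gained could reach each threshold from a lower DMSO level.

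The approximate error shrank as the level grew, so strong peaks carry the firmest statements. Its median was 0.63 for peaks in the adjustment with a mean level between 2 and 3, 0.41 between 4 and 5, and 0.21 at 8 or more. The 5 higher calls with the smallest FDRs show the values behind the upper set. The peak at chr7:64598200-64600099 had a DMSO level of 8.47 and a 5-AzaC level of 9.40, or 187 and 356 normalised reads per kb. Its FDR, 0.00624 in the authors' deposited table, was the lowest of the 90 higher calls. A second peak of that locus, chr7:64604475-64606049, went from 7.14 to 8.05 (FDR 0.00775 in the authors' deposited table). A narrow peak of 339 bp on the long arm of chromosome 4, chr4:63365107-63365446, had levels of 5.72 and 6.84, and the FDR listed in the authors' deposited table was 0.00706. For chr8:34771290-34773565 the levels were 5.82 and 6.98 (FDR 0.00744 in the authors' deposited table), and for chr16:25920964-25922187 they were 8.57 and 9.40 (FDR 0.00988 in the authors' deposited table). All 5 lay between 1.53 and 1.86 above the median change.

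The 8 peaks with the highest control levels all lay above 0, with changes from 0.08 to 1, and 4 of them were called higher. The strongest peak, chr7:53011132-53015216, went from 10.37 to 10.97, which is 324 to 491 normalised reads per kb. Next came a peak on an alternate-locus sequence of chromosome 20 (10.34 to 10.86) and one on an unplaced sequence (10.24 to 10.72). These 3 were called higher, at 0.0256, 0.034 and 0.0479 in the FDR column of the authors' deposited table. The smallest change was at chr17:53383511-53384903, where levels of 9.34 and 9.42 stood beside 0.707 as the FDR in the authors' deposited table.

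The lower calls with the smallest FDRs were also strong peaks. The peak at chr16:5239153-5241177 fell from a DMSO level of 7.33 to 5.61, or from 79.5 to 24.1 normalised reads per kb, and the authors' deposited table lists 0.000198 as its FDR. It was followed by a peak on an alternate-locus sequence of chromosome 13 (6.20 to 4.39), by chr23:18980785-18982501 (6.78 to 5.22), by chr7:38577144-38578140 (6.29 to 4.53) and by chr18:21950731-21952232 (7.23 to 5.53). Their FDRs in the authors' deposited table were at most 0.000619. Relative to the median change these 5 lay at -1.11 to -0.86, and none passed the approximate test against the median, with adjusted p-values from 0.0543 to 0.173.

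Peak width followed the level. The median change went from -0.28 in 1872 peaks under 400 bp through -0.61, -0.77 and -0.82 to -0.88 in 699 peaks of 2000 bp or more. Lower calls made up 3.15% of the narrowest and 46.9% of the widest peaks in the adjustment. Wider peaks were stronger and strong peaks had smaller errors, so these shares do not measure the change alone. Of the peaks in the adjustment, higher calls made up 2.10% under 400 bp (6 of 286) and 4.17% at 2000 bp or more (29 of 695). Between 800 and 1200 bp they made up 0.11% (8 of 7336). Entry into the adjustment followed the mean level, which includes 5-AzaC, and only 286 of the 1872 narrowest peaks entered. With a DMSO level under 3, 39 of 1554 peaks under 400 bp entered, and they gave 4 of the 6 calls. The share at the narrow end thus depends on which peaks entered. Wider peaks were stronger, with median DMSO levels of 3.13 at 400 to 800 bp and 5.59 at 2000 bp or more, while the median DMSO signal per length lay between 13.6 and 21.1 normalised reads per kb in all 5 ranges. Across all 29854 peaks Spearman's rho was -0.21 between change and width and 0.65 between mean level and width. The same peaks and reads stand behind all these values.

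Within a level the order by width depended on the level. Between mean levels 4 and 5 the medians were -0.71 at 400 to 800 bp, -0.84 at 800 to 1200 bp, -0.86 at 1200 to 2000 bp and -0.88 at 2000 bp or more. Between 5 and 6 the 118 peaks of 400 to 800 bp had a median of -0.66 and the 273 peaks of 2000 bp or more a median of -0.97. The narrowest peaks had higher medians at these mean levels, -0.15 in 18 peaks under 400 bp between 4 and 5 and 0.46 in 13 between 5 and 6. The median DMSO signal of the 13 was 98.5 normalised reads per kb. The mean level includes 5-AzaC, so peaks that gained could reach it from a lower DMSO level. By DMSO level, the 50 peaks under 400 bp between 4 and 7 had a median of -0.59, with 34 below 0. Those of 400 to 800 bp had -0.82. At weak levels the medians did not fall steadily with width. Mean levels between 1 and 2 held no peak of 2000 bp or more. The medians there were -0.15 under 400 bp, -0.30 at 400 to 800 bp and 0.12 at 800 to 1200 bp. In 49 peaks of 1200 to 2000 bp the median was 0.41, and these held a median of 2.09 normalised reads per kb in the control. Between 2 and 3 the medians of the 5 width ranges, -0.37, -0.58, -0.58, -0.43 and -0.65, followed no order. At a mean level of 7 or more every width range that held peaks had a median above 0, but peaks that gained reach this level more readily. By a DMSO level of 7 or more, the 7 peaks of 800 to 1200 bp had a median of -0.54, with 4 below 0. The other width ranges had medians above 0 on that axis too.

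**Figure D3:**
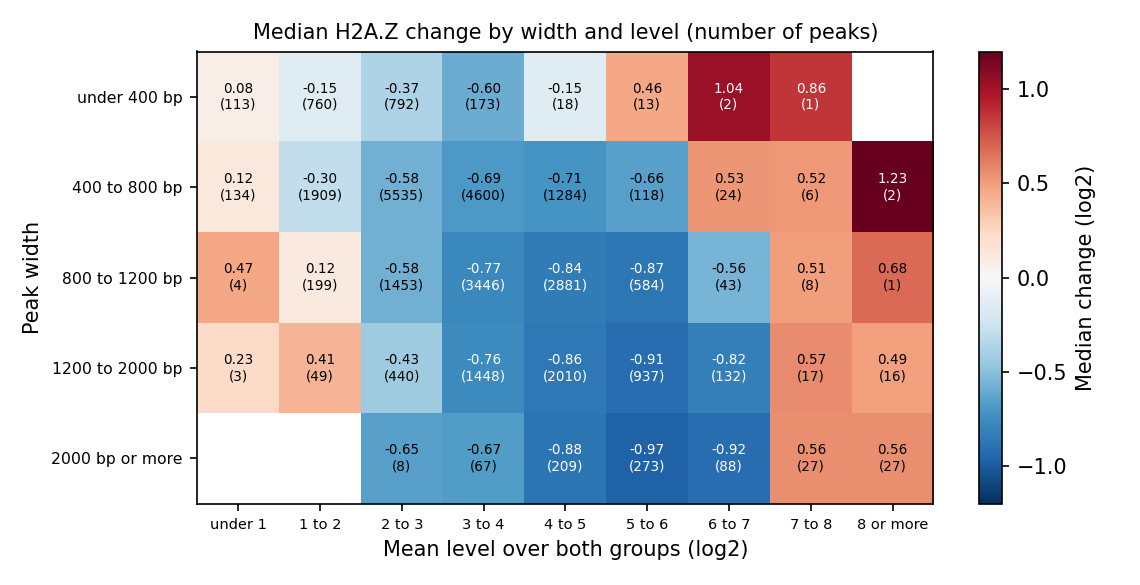
Median change (colour and upper number, log2, 5-AzaC minus DMSO) by peak width (rows) and mean level over both groups (columns), with the number of peaks in brackets. From mean levels 2 to 5 every cell lies below 0, from 7 upwards every filled cell lies above 0, and at 5 to 7 the cells above 0 are those of narrow peaks. The mean level includes 5-AzaC, so peaks that gained could reach a column from a lower DMSO level.

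The 25 assembled chromosomes held 24755 of the peaks. A further 4628 lay on 871 alternate-locus sequences, and the remaining 471 on 301 unplaced ones. Alternate-locus sequences are further versions of a chromosomal region that the reference carries beside the chromosome, and unplaced sequences are those without a known chromosome. The median change was -0.68 on assembled chromosomes, -0.79 on alternate loci and -0.53 on unplaced sequences. Unplaced sequences departed upwards most often: 21.4% of their peaks lay at least 1 above the table's median, against 8.64% on assembled chromosomes and 5.10% on alternate loci. Of the peaks in the adjustment, 12 of 319 unplaced (3.76%), 77 of 16931 assembled (0.45%) and 1 of 2763 alternate (0.04%) were called higher. Lower calls were 13.8%, 18.6% and 19.8%. Reads that match several copies of a sequence can be placed in any of them, the treatment of such reads is not given in the sources used here, and its part in these values was not tested.

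The alternate loci were lower than the chromosomes at each level. Their medians were -0.41 at a DMSO level under 3, -0.90 between 3 and 5 and -1.02 at 5 or more, where assembled chromosomes had -0.24, -0.75 and -0.91. The order held for each chromosome taken by itself. In 25 of 25 cases the alternate-locus peaks had a lower median change than the peaks of their own chromosome, with differences from -0.24 (chromosome 4) to -0.02 (chromosome 14) and a median difference of -0.10. When the chromosome's peaks were given the mean-level make-up of its alternate loci, the alternate loci were still lower in 25 of 25, with differences from -0.32 to -0.07.

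Upward departures on unplaced sequences were set beside those on assembled chromosomes by level. Between DMSO levels 3 and 5 the median was -0.72 on unplaced sequences and -0.75 on assembled chromosomes, but 8.56% and 1.62% of peaks lay at least 1 above the table's median. At 5 or more 29.0% of 100 unplaced peaks did so, against 4.45% of 3549, and the medians were -0.62 and -0.91. Of these 29 unplaced peaks, 9 lay on a single sequence, KN149693v1, which also gave 5 of the 12 unplaced higher calls. Another sequence, KN149692v1, held 8 departing peaks with DMSO levels from 4.72 to 7.25. The share is thus not spread evenly over the 301 unplaced sequences. Under 3 the medians were -0.01 on unplaced sequences and -0.24 on assembled chromosomes. Of the 101 departing unplaced peaks 53 were in this range, where only 12 of 149 unplaced peaks were in the adjustment. The 53 of 149 stood beside 1755 of 7313 on assembled chromosomes. Among peaks at 7 or more the share was no larger on unplaced sequences, at 64.3% of 14 against 66.7% of 99. The summed 5-AzaC signal of the unplaced peaks, over 0.442 Mb, was 0.95 times that in DMSO (28.1 normalised reads per peak in DMSO and 26.7 in 5-AzaC on average). Alternate loci, covering 3.87 Mb, kept 0.582 of theirs, at averages of 14.8 and 8.62.

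The assembled chromosomes were close to each other apart from chromosome 4. The medians of the other 24 chromosomes ran from -0.72 (chromosome 18) to -0.65 (chromosomes 7, 8 and 17), and that of chromosome 4 was -0.52. Of their peaks, from 6.66% (chromosome 25) to 10.8% (chromosome 24) lay at least 1 above the table's median. Of the 77 higher calls, 39 were on chromosome 4 with 14 (2.19% of its peaks in the adjustment), chromosome 7 with 10 (1.10%), chromosome 10 with 8 (1.29%) and chromosome 5, which has the most peaks, with 7 (0.71%). Over the assembled chromosomes the share was 0.45%, and 4 chromosomes had 0 higher calls. Of the 8 on chromosome 10, 6 lay in chr10:16706052-16840734 and 2 in chr10:12053653-12126597. Of the 10 on chromosome 7, 3 lay in chr7:64598200-64646942 and 2 in chr7:53001561-53033398. The stretch chr5:43190397-43283664 gave 3 of the 7 on chromosome 5. The shares of these chromosomes thus rest in part on single loci.

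**Figure D4:**
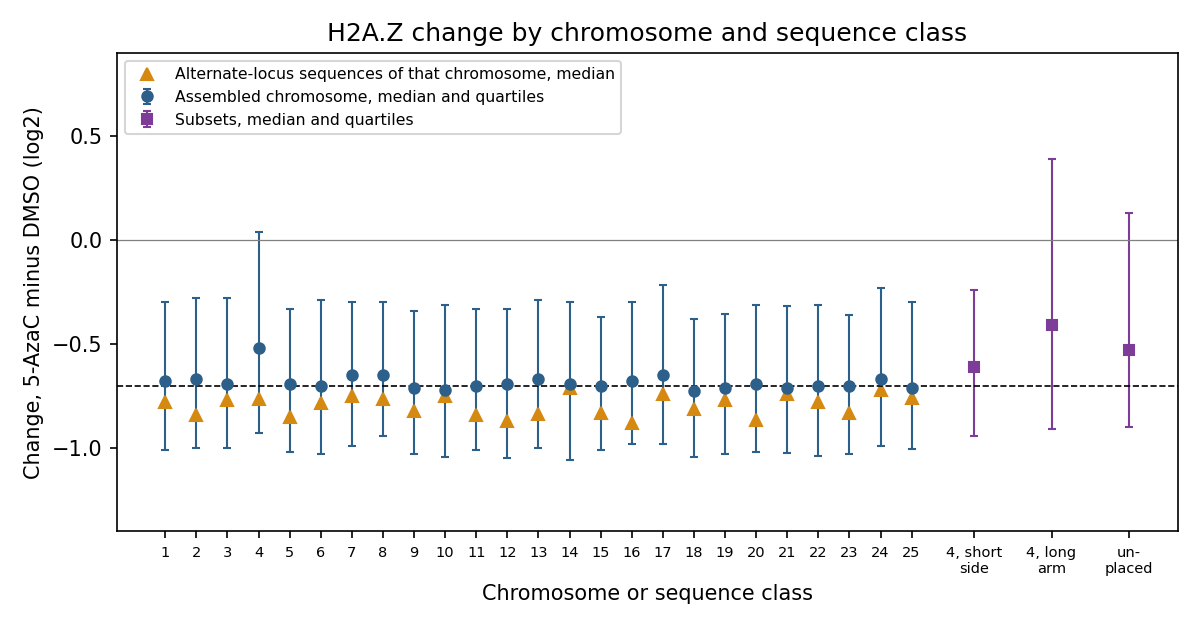
Median change (5-AzaC minus DMSO, log2) of the peaks of each assembled chromosome (circles, with quartiles), of its alternate-locus sequences (triangles), and of both sides of chromosome 4 and the unplaced sequences (squares, with quartiles). The dashed line is the median of all peaks. Every triangle lies below its circle, and the long arm of chromosome 4 reaches a median of -0.41 with an upper quartile of 0.39.

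The long arm of zebrafish chromosome 4, rich in repeats and heterochromatin, departed further than its other side. From 25 Mb onwards its 665 peaks had a median change of -0.41 and quartiles of -0.91 and 0.39, and 27.4% of them lay at least 1 above the table's median. The 480 peaks below 25 Mb had a median of -0.61, which was also above the -0.65 of the highest other chromosomes, and 6.25% did so. All 14 higher calls of the chromosome were on the long arm (4.68% of 299 peaks in the adjustment), where 21 peaks were called lower (7.02%). The arm's peaks were weaker, with a median DMSO level of 2.90 against 3.71 on the other chromosomes. Most of the arm's departing peaks, 122 of 182, had a DMSO level under 3, where only 20 of its 353 peaks were in the adjustment. At that level 122 of 353 peaks on the arm departed upwards, next to 1755 of 7313 on all assembled chromosomes. At DMSO levels between 3 and 5 the median was -0.74, next to -0.75 for all assembled chromosomes. There 16.2% of peaks lay at least 1 above the table's median, next to 1.62%. At 5 or more the arm had a median of -0.57 in 46 peaks, of which 37.0% did so. Most of these departing peaks lay in a single stretch, chr4:28555523-28709765, which also gave 6 of the arm's 14 higher calls. At that level the share is therefore mainly that of 1 locus and not of the arm as a whole. Between 3 and 5 the share also rests in part on single stretches. The 43 departing peaks there included all 6 peaks of chr4:41339421-41360930 and most of the 10 of chr4:67549188-67587122. Along the arm, the peaks from 60 to 70 Mb had the highest median, -0.12 in 98 peaks, and 43.9% of them lay at least 1 above the table's median.

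Medians were also taken by region. Of 1173 windows of 1 Mb with at least 10 peaks, 5% had a median change at or below -0.96 and 5% at or above -0.33. A median above 0 occurred in 19 windows, of which 9 were among the 37 windows on the long arm of chromosome 4 and 0 among the 20 on its other side. The highest, 1.08 in 17 peaks, was the window from 67 Mb on chromosome 4, where 10 peaks lay at least 1 above the table's median. Outside chromosome 4 the highest were the windows from 64 Mb on chromosome 7 (median 0.61, 13 peaks) and from 14 Mb on chromosome 2 (0.54, 20 peaks). The lowest was -1.16, from 19 Mb on chromosome 12.

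Part of the upward departures lay in runs, and downward departures formed no run of 5 or more. Joining peaks at least 1 above the median that lay up to 100 kb apart gave 1840 loci, of which 1483 were single peaks and 32 held at least 5. These 32 runs held 235 of the 2475 departing peaks (9.49%) and 49 of the 90 higher calls (54.4%). Only 704 of the 2475 were in the adjustment and could be called. The shares thus have different bases, and their gap does not measure how far calls gathered in runs. Among the 259 peaks of the runs 1 was called lower, and by construction none of the 235 could be. Of the 32, 6 lay on the long arm of chromosome 4 and 3 on unplaced sequences. The 760 peaks at least 1 below the median gave 704 loci, none with more than 3. They are fewer than the 2475, which by itself makes runs rarer, and the directions were not compared at equal number.

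The largest runs differed in how alike their peaks were. Joined peaks had a change of at least 0.30 by construction, so the lower limit of their changes is no result. The run at chr10:16706052-16840734 held 13 peaks with DMSO levels from 1.47 to 9.06, and their changes lay between 0.39 and 0.87, with a median of 0.56. All 13 were at least 1 above the table's median, and 6 were called higher. At chr24:12368724-12519818 the 15 peaks had DMSO levels from 0.24 to 9.14 and changes from 0.28 to 2.54 with a median of 0.49. None of the 15 was called. The largest run, chr4:28555523-28709765, held 18 peaks with a median of 0.72, from -1.84 to 1.09, of which 6 were called higher and 1 lay below 0. At chr2:19423098-19523135 the 13 peaks had a median of 0.51, and 2 of them lay below 0.

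Other runs had larger changes that the deposited test did not call. At chr2:14660285-14763433 the 13 peaks had a median change of 1.35, from -1.52 to 2.12, and 0 were called higher. The peak chr2:14671065-14671495 in this run lay farthest above the median among the stronger peaks of the table. Its DMSO level was 4.74 and its 5-AzaC level 6.86, and its FDR in the authors' deposited table was 0.127. Its approximate error was 1.09, against a median of 0.288 for peaks of that mean level. At chr4:41339421-41360930 all 6 peaks had changes between 1.43 and 1.81 and again 0 were called. The chr4:67549188-67587122 run had 10 peaks with a median of 1.40, from 0.34 to 1.78, and 2 higher calls. The table holds no value of a single library for these peaks.

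**Figure D5:**
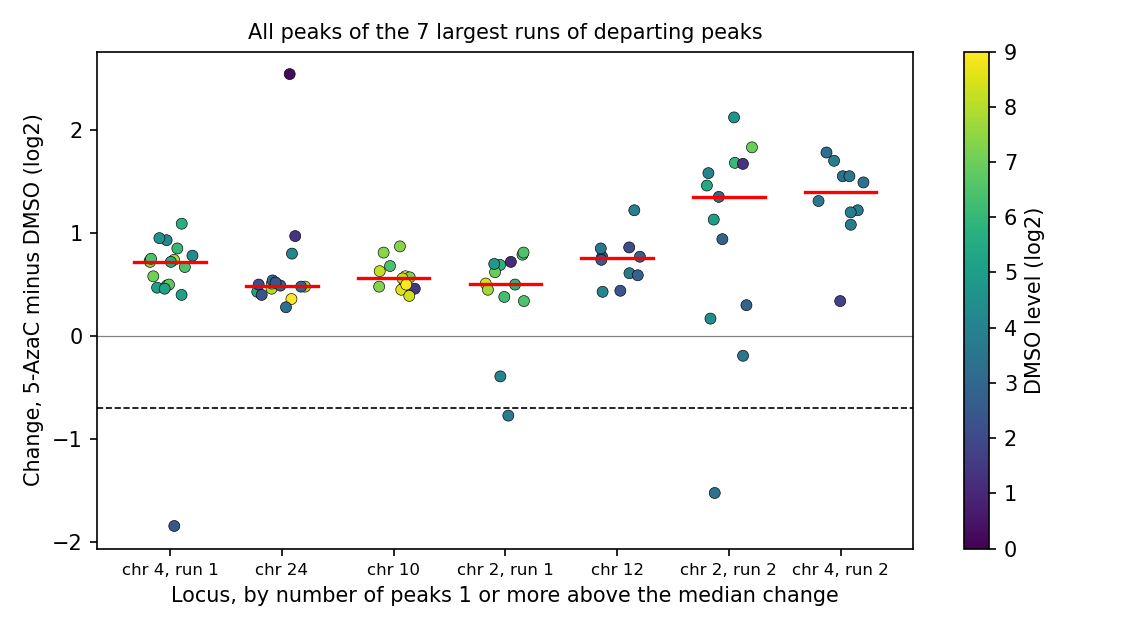
Change (5-AzaC minus DMSO, log2) of every peak in the 7 largest runs of peaks at least 1 above the median change, with points coloured by DMSO level and red lines for the run's median. The chromosome 10 run stays between 0.39 and 0.87 over DMSO levels from 1.47 to 9.06, while the second chromosome 2 run spreads from -1.52 to 2.12.

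Among peaks in the adjustment whose mean level over both groups was at least the table's median, the 8 farthest from the median change were taken in each direction. Since the mean level includes 5-AzaC, peaks far above could pass through their 5-AzaC level and peaks far below through their DMSO level, so the sets are described and not compared. Of the 8 farthest above, 3 lay on the long arm of chromosome 4, 2 on chromosome 2, 1 each on chromosomes 1 and 22, and 1 on an unplaced sequence. Their changes ran from 1.81 to 2.12. The authors' deposited table gave FDRs under 0.05 to 3 of them, at most 0.0393, among them chr4:42648452-42649901 (2.36 to 4.47) and chr22:39122374-39122975 (2.15 to 4.16). Of the 8 farthest below, 4 lay on alternate loci, of chromosomes 5, 12, 18 and 23, which hold 15.5% of all peaks. Their changes ran from -2.69 to -2.16, and all 8 had FDRs of at most 0.0122 in the authors' deposited table. The lowest, chr21:25676828-25677590, fell from a level of 4.14 to 1.45, or from 23.1 to 3.59 normalised reads per kb. Against the median none of these 8 passed the approximate test, with adjusted p-values from 0.0727 to 0.647.

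At the same peaks the table of the TDCIPP comparison, which shares the 3 DMSO samples and has 2 treated samples, gave the following values, each at the best overlapping peak. The peak at chr7:64598200-64600099, at 0.93 after 5-AzaC, was at 0.38 after TDCIPP (FDR of 0.624 listed in the authors' deposited table). At chr7:53011132-53015216 the changes were 0.60 and 0.09. Among the 8 named peaks farthest above the median, changes of 1.81 to 2.12 after 5-AzaC stood beside 1.09 to 1.63 after TDCIPP. For chr4:42648452-42649901, which is 1 of these 8, no TDCIPP value was available. The FDRs of those TDCIPP changes in the authors' deposited table were at least 0.331. The run on chromosome 10 had a median of 0.56 after 5-AzaC and 0.12 over the 13 TDCIPP peaks in its span, and the largest chromosome 4 run 0.72 and 0.27. For chr2:14660285-14763433 the medians were 1.35 after 5-AzaC and 1.10 after TDCIPP, and for chr4:41339421-41360930 they were 1.66 and 1.57. Of the 8 named peaks farthest below the median, chr21:45502880-45503741 was at -2.16 after 5-AzaC and at -3.53 after TDCIPP (FDR of 0.000376 listed in the authors' deposited table). The changes at chr17:10073566-10074858 were -2.17 and -2.04, and at chr21:25676828-25677590 they were -2.69 and -1.60. At the alternate-locus peaks of chromosomes 5, 12 and 18 they were -2.25 and -2.03, -2.22 and -1.18, and -2.23 and -1.43. At that of chromosome 23 they were -2.27 and -0.11, and at chr11:17137993-17138668 they were -2.21 and -0.15. At the alternate-locus peak of chromosome 13, among the lower calls with the smallest FDRs, the changes were -1.81 and -2.61. At the other named lower calls of that list they ran from -1.76 to -1.56 after 5-AzaC and from -1.61 to -1.18 after TDCIPP. The level of the shared DMSO samples is a term of both changes. Peaks picked for a large change after 5-AzaC therefore tend to show a change of the same sign after TDCIPP. The changes are given as they stand, and those after TDCIPP were not set against the median change of that comparison. Differences between the 2 treatments were not tested.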

How the data were processed

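Bowtie2, Picard, MACS2, deepTools, DiffBind and the build GRCz11 are named, with no role, order or version, in the submitters' processing notes. The authors deposited, per the file headers, per consensus peak, log2 levels of each group and of all samples, the log2 change between groups, its p-value and its FDR. Alignment settings, scaling and test are not given in the sources used here. Coordinates are printed as deposited, and whether their starts are 0-based or 1-based is not stated. The deposited change equalled the difference of the group levels to within 0.01. Width is end minus start.

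A peak was called where its deposited FDR was below 0.05. In the approximate test against the median change, each error was the absolute change over the standard normal quantile that its p-value implies. Where the absolute change was below 0.2, or the p-value reached 0.9, the median error of peaks of similar mean level (50 bins) was taken instead. It was tested on simulated data, where it found few of the planted departures of 1 in either direction, so its counts say little about departures of that size. Python 3.11.15, pandas 2.3.3 and scipy 1.17.1 were used. Library depth is unknown. The named peaks are the 8 farthest above and below the median change among peaks in the adjustment of at least median mean level, the 5 smallest FDRs in each direction and the 8 highest DMSO levels. Runs were named by size, and those with values that stand apart after their values were seen. No gene was assigned to a peak, so the embryos were not checked against marker genes. Peaks are not independent replicates, and no test was run over them as such. The sets of peaks, thresholds and tests were chosen with earlier results of these data known.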

Additional observations from a re-analysis of the deposited data

How the results depend on the processing

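No paired analysis was possible because the tables hold 1 value per group. For the same reason leaving out replicates was not run. Gene position and gene lists were not analysed here. The median change stayed below 0: -0.62 as a mean, -0.78 over peaks in the adjustment, -0.68 over assembled chromosomes, -0.73 at a mean level of at least 2, -0.63 with a pseudocount of 1, and -0.61 as a log2 ratio of sums. An FDR of 0.01 gave 615 lower and 5 higher calls in the authors' deposited table, and 0.1 gave 6699 and 204. Benjamini-Hochberg over all peaks left 58 higher calls. Departures of 0.5 numbered 6091 above and 4564 below, and of 1.5 numbered 995 and 141. At a mean level of at least 2, 1630 lay above, and with a pseudocount of 1, 339 lay below. An adjusted p under 0.1 gave 4 peaks lower than the median in the approximate test, where centring within level gave 0, with 252 at an unadjusted p under 0.05. Those 252 are likewise no evidence of departure by themselves. At a mean level of at least 2 the class medians were -0.71 (assembled), -0.83 (alternate), -0.55 (long arm) and -0.60 (chromosome 4). With the level make-up of all peaks, assembled chromosomes had -0.63, and the 24 other chromosomes ran from -0.67 to -0.59 with chromosome 4 at -0.54. The widths from 400 bp upwards then had -0.60, -0.63, -0.57 and -0.73, no longer in order. By mean level, the 9 medians from weakest to strongest were 0.10, -0.23, -0.54, -0.73, -0.83, -0.89, -0.77, 0.56 and 0.56. By 5-AzaC level they were -1.27, -0.73, -0.63, -0.69, -0.75, -0.77, -0.23, 0.64 and 0.60. Without the 32 runs, an alternative added after seeing the data, the medians were -0.57 on unplaced sequences and -0.49 on the long arm.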

Other observations

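Among peaks of assembled chromosomes, the distance to the next peak changed the median change little. It was -0.62 in 166 peaks with a neighbour under 1 kb away, -0.69 between 1 and 10 kb, -0.68 between 10 and 100 kb, and -0.63 in 919 peaks with none within 100 kb. Higher calls were 59 of 6914 peaks in the adjustment (0.85%) between 1 and 10 kb, and 13 of 9402 (0.14%) between 10 and 100 kb. They were 1 of 107 (0.93%) under 1 kb and 4 of 508 (0.79%) where no peak lay within 100 kb, so the shares followed no order of distance.

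When the peaks were ordered by DMSO signal per length and divided into 10 equal groups, the 2986 sparsest peaks, with a median of 5.11 normalised reads per kb, had a median change of 0.18. The next to last group, at 30.4 per kb, had -0.88. The 2986 densest peaks had a median of -0.89, yet held 56 of the 90 higher calls beside 1310 lower ones. The DMSO level is a term of both this order and the change. An error that lowers it places a peak among the sparsest and raises its change. The positive median of the sparsest peaks is therefore no separate result, and only 305 of them were in the adjustment.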
